A study of Mus musculus with 4 samples.

Results

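The cytochrome P450 genes were followed through a single-nucleus RNA data set of mouse kidney cortex. Members were all gene symbols made of Cyp, a number, 1 or 2 letters and a number, which gave 69 of the 21046 genes in the table. No measured value entered that rule, though it was chosen with earlier results of these data known. The rule left out 3 further P450 symbols, Cyp4a12a, Cyp4a12b and Cyp51, which are given apart below.

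Nuclei came from 1 library for each of 4 genotypes, all labelled C57BL/6J. The labels are Klf4flox/flox (the floxed Klf4 allele alone, used as the control), Klf4deltaEC (Klf4 deleted in endothelial cells), Nos3-/- (endothelial nitric oxide synthase lost) and Klf4deltaECNos3-/- (both). The Cre driver, age, sex and number of mice per library are not stated. The title asks what endothelial Klf4 loss does with and without Nos3. P450 genes of the tubule are therefore read in cells that the labelled endothelial deletion does not target.

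Cytochromes P450 are haem enzymes that put 1 oxygen atom into a substrate. Most sit in the endoplasmic reticulum and take electrons from the reductase Por, and a few sit in mitochondria and take them from ferredoxin. In the kidney they are known for activating and breaking down vitamin D, for turning arachidonic acid into epoxides and omega-hydroxy acids that act on vessels and salt transport, and for handling foreign compounds. Proximal tubule cells are the main site of most of these reactions. Several mouse kidney P450 genes are known to be higher in males.

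The sequences below show the coding stretch of the haem-binding loop, the feature that defines the family. Each is 30 bases of GENCODE M21 coding sequence, written 5′ to 3′ on the gene's own strand. The capitals mark the codon of the cysteine that holds the haem iron. All are members described with values below.
Cyp2j5: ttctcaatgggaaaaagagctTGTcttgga
Cyp2j13: ttttcaatgggaaagcgagctTGCctcgga
Cyp2e1: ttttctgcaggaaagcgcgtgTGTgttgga
Cyp4b1: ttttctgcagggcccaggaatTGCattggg
Cyp4a10: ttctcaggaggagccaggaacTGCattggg
Cyp4a31: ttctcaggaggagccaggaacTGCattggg
Cyp24a1: tttggcgtcgggaagaggatgTGCatcggg
Cyp27a1: ttcggctatggggttcggtctTGCctgggt
Cyp27b1: ttcggctttggcaaacggagcTGCatcggg

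In GRCm38, the build called mm10, the Cyp24a1 loop is at chr2:170485929-170485958 on the minus strand, in exon 10 of 12. The Cyp27a1 loop is at chr1:74737320-74737349 on the plus strand, in exon 8 of 9, and the Cyp27b1 loop is at chr10:127051639-127051668 on the plus strand, in exon 8 of 9. In the other sequences shown an intron splits the loop: the Cyp2j5 loop is spread over chr4:96629627-96630720 on the minus strand, in exons 8 and 9 of 9, and the Cyp4b1 loop over chr4:115625216-115625662 on the minus strand, in exons 11 and 12 of 12. The loop pattern was found in the reading frame of 64 of 69 members, and in 49 of them it was split over 2 exons. All 34 Cyp2 loops and all 15 Cyp4 loops found were split, and 0 of 3 Cyp3a, 0 of 3 Cyp26 and 0 of 2 Cyp27 loops were. The pattern was not found as searched in Cyp7b1, Cyp39a1, Cyp20a1, Cyp2s1 and Cyp2b10, which says only that these letters are not in those frames.

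The loop sequences also show how alike some members are. The 64 loops gave 54 distinct sequences, and Cyp4a10, Cyp4a31 and Cyp4a32 shared theirs. Of the windows of 60 bases in the spliced Cyp4a32 transcripts, 36.4% also occurred in another member. The share was 24.6% for Cyp4a10, 15.8% for Cyp4a31 and 28.7% for Cyp2a4. How reads that match several of these genes were counted is not stated, so the split between these paralogs is uncertain. Members lie on 15 chromosomes, with 15 on chromosome 4, 14 on chromosome 19 and 11 on chromosome 7. The 8 Cyp2j genes stand in a row on chromosome 4 from Cyp2j13 (start 96027534) to Cyp2j5 (end 96664154), and the 5 Cyp4a genes and Cyp4b1 in another stretch from Cyp4a29 (start 115242084) to Cyp4b1 (end 115647723).

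The table gives mean UMIs (counted RNA molecules) per 10000 UMIs for each of 23 clusters in each library. The recovered numbers of nuclei were 6766, 6875, 6998 and 5491 in the order of labels above, with median totals of 3818, 3435, 2282 and 4312 UMIs per nucleus. The library labelled Nos3-/- was the shallowest. Neither targeted gene had a lower level in the libraries labelled as deleted than in the library labelled Klf4flox/flox. In cluster 10, the endothelial-like nuclei, Klf4 stood at 0.621, 0.779, 0.445 and 0.825 and Nos3 at 1.26, 0.930, 1.52 and 2.07. No interval was drawn for these levels, and 3 counts in cluster 10 equal 0.0717 to 0.0893 per 10000. Whether this assay reads the deleted stretch is not stated, so these levels check no label, and libraries are called by their labels throughout. With 1 library per genotype no difference has a replicate check, no p-value is given, and bracketed ranges are 95% counting intervals only. They leave out differences between nuclei, mice and preparations. A level here is a share of molecules, so fewer nuclei of a kind in a cluster and less RNA per nucleus cannot be told apart.

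Markers of the proximal tubule led in clusters 0, 1, 3, 5, 6 and 12, which held 3115, 3295, 3582 and 2170 nuclei and are called the 6 proximal clusters. Clusters 3 and 5 had the highest summed S1 markers (79.0 and 60.7 per 10000, against 2.61 to 15.5 in clusters 0, 1 and 6) and are S1-like. Cluster 1 had the highest S3 sum (83.5) and is S3-like. Clusters 0 and 6 had the highest S2 sums (21.5 and 18.4), with S3 markers at 61.4 and 38.4, and are S2-like with S3 markers. Cluster 12 stays unnamed: its median UMIs were 18.3% to 44.5% of its library's, and none of the proximal markers was among its 10 leading genes. The latter also held for clusters 1 and 3, though segment markers stood among theirs (Slc22a19 in cluster 1, Slc7a7 and Slc5a2 in cluster 3). Cluster 7 was left unnamed and counted with the other nuclei, a choice its markers do not settle. The proximal list led in it, with a summed level of 107.4 against 90.05 in cluster 1, its segment sums were mixed (15.2 for S1, 9.29 for S2 and 34.4 for S3), and its median UMIs were 4576 to 11916. With cluster 7 among the proximal clusters, 0, 1, 0, 2 and 0 members passed the size limit in the 5 library comparisons below, in their order, in place of 0, 1, 0, 3 and 0.

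P450 messages were a visible part of the proximal nuclear RNA. The 69 members together made up 63.6, 58.3, 45.9 and 67.9 per 10000 UMIs in the 6 proximal clusters, pooled by nuclei, and 15.6, 15.98, 20.6 and 15.03 in all other nuclei. The proximal sum was lowest, and the sum elsewhere highest, in the library labelled Nos3-/-. Most of the sum came from few genes: Cyp4b1, Cyp2j13, Cyp7b1 and Cyp2j5 held 75.2%, 76.9%, 73.0% and 74.2% of the members' proximal UMIs. Averaged over the libraries, 4 members reached 5 per 10000 in the proximal pool, 7 reached 1, 13 reached 0.5 and 23 reached 0.1.

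The other members were low or not detected. At least 3 counts, the detection floor, were reached in the proximal pool in all 4 libraries by 42 members, in 1 to 3 libraries by 11 and in none by 16. The floor lay at 0.00240, 0.00258, 0.00383 and 0.00331 per 10000. In a single cluster in all 4 libraries, 36 of 69 members reached 3 counts, beside 65.0% of all genes. Of the 13 members that averaged 0.5 or more in the proximal pool or in the other nuclei, 9 were at least 2-fold higher (log2 ratio of at least 1, with 0.1 added to both values) in the proximal pool than in the other nuclei in all 4 libraries. These were Cyp2d12, Cyp2d26, Cyp2e1, Cyp2j5, Cyp2j9, Cyp2j13, Cyp4b1, Cyp7b1 and Cyp24a1. The background is 8.76% of 4533 genes. In the other direction, 0 of the 13 members and 580 of the 4533 genes were lower by that size. All 13 members reached 0.5 in the proximal pool, but only 3562 of the 4533 genes did. The filter thus in part sets both counts of members, and the background is not a like one. Cyp39a1 (0.0564 against 0.367 on average) and Cyp2s1 (0.0185 against 0.159) were lower in the proximal pool but did not enter. Clusters were built from the same nuclei, so this is a description. Without the library labelled Nos3-/- the count was 12, with 0.5 added to both values it was 3, and with cluster 7 left out of the other nuclei it was 9.

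**Figure D1:**
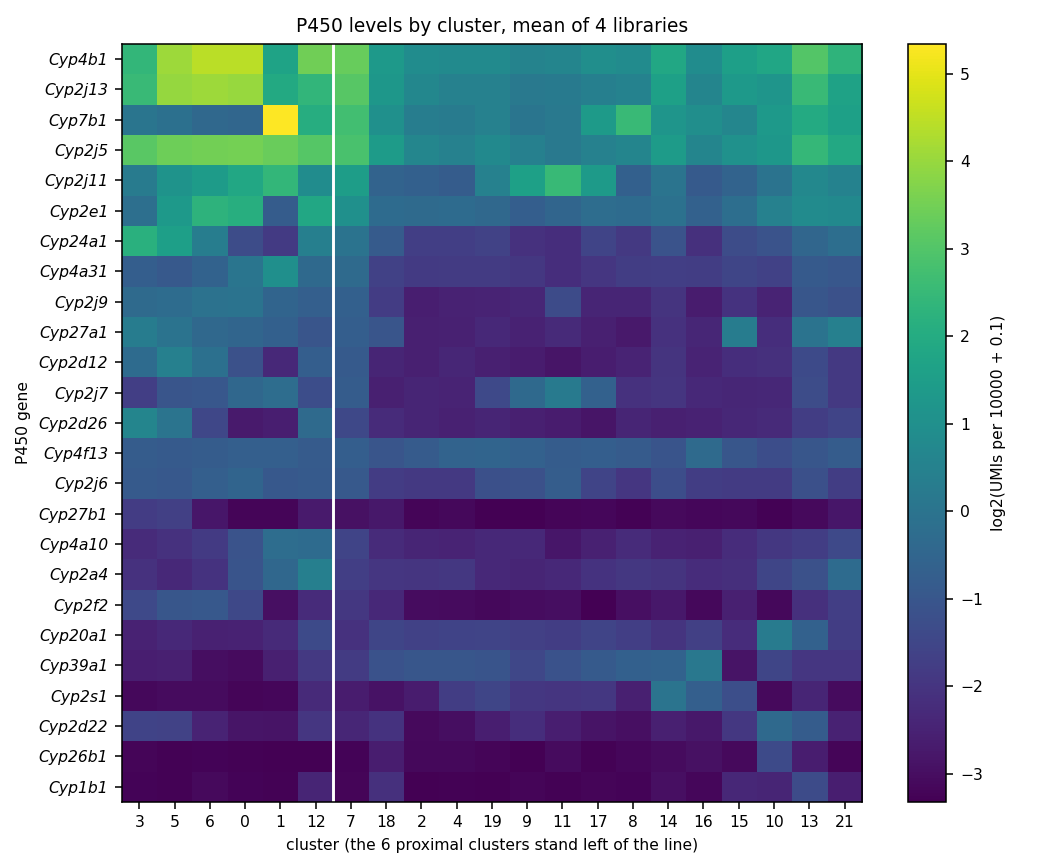
Colours give log2(UMIs per 10000 + 0.1), the mean of 4 libraries, for 25 P450 genes (rows) in the 21 clusters with at least 20 nuclei in every library (columns). Cyp7b1 stands out in cluster 1 and Cyp24a1 in clusters 3 and 5, whereas Cyp2j11 and Cyp2j7 are also high in cluster 11 and Cyp20a1 in cluster 10.

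The steroid and sterol enzymes were led by Cyp7b1, the oxysterol and steroid 7-alpha-hydroxylase (chromosome 3, 18071950 to 18243338, minus strand). In the S3-like cluster 1 it stood at 54.5 (53.8 to 55.1), 43.6, 24.4 (23.7 to 25.1) and 39.4 per 10000. In cluster 0 it stood at 0.50, 0.272, 1.47 and 0.231. The gap between cluster 1 and cluster 0 was 109-, 161-, 16.6- and 171-fold in the 4 libraries, narrowest in the library labelled Nos3-/-, and cluster 1 led in all 4 libraries. Outside the proximal clusters Cyp7b1 was highest in the principal cell-like cluster 8 among the named clusters, at 6.49, 5.18, 5.42 and 5.75. Relative to its own proximal level, that exceeded each of the 9 proximal markers in cluster 8 in all 4 libraries.

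The other genes of this list, apart from Cyp27a1 (given with the vitamin D genes), averaged under 0.1 in the proximal pool. Cyp39a1, an oxysterol 7-alpha-hydroxylase, led in the intercalated cell-like cluster 16 in all 4 libraries, at 1.70 (1.305 to 2.17), 0.749 (0.497 to 1.085), 0.652 (0.3075 to 1.21) and 0.887 (0.633 to 1.21), against 0.0428 to 0.0684 in the proximal pool. Cyp46a1, the cholesterol 24-hydroxylase, averaged 0.100 in the thick ascending limb-like cluster 4 and 0.00779 in the proximal pool. The steroid-forming enzymes were at or near the floor in the proximal pool: Cyp11a1, the side-chain cleavage enzyme, stood at 0.00390 to 0.00898, Cyp19a1 (aromatase) at 0 to 0.00630 and Cyp17a1 at 0 to 0.000497. Cyp7a1, Cyp8b1, Cyp11b1, Cyp11b2 and Cyp21a1 are not among the gene symbols analysed here.

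Of the 4 vitamin D genes, Cyp24a1, Cyp27b1 and Cyp27a1 were highest at the S1 end among the proximal clusters. Cyp24a1, the 24-hydroxylase that breaks down active vitamin D, reached 4.19 (3.88 to 4.51), 4.59 (4.27 to 4.93), 3.03 (2.75 to 3.33) and 5.98 (5.56 to 6.43) in cluster 3. In the S3-like cluster 1 it stood at 0.158, 0.177, 0.223 and 0.162. Cluster 3 led in all 4 libraries, 26.5-, 26.0-, 13.6- and 37.0-fold above cluster 1. A neighbouring gene, Pfdn4, overlaps Cyp24a1 in the annotation, and whether counting used strand is not given.

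Cyp27b1, the 1-alpha-hydroxylase that makes active vitamin D, was low but had the same place. It reached 0.140 (0.0887 to 0.209), 0.171 (0.114 to 0.247), 0.304 (0.219 to 0.409) and 0.159 (0.0969 to 0.247) in cluster 3 and at 0.0997 (0.0650 to 0.146), 0.317 (0.252 to 0.394), 0.215 (0.142 to 0.311) and 0.217 (0.153 to 0.299) in cluster 5. Its means in clusters 0 and 1 were 0.00920 and 0.00944. Cyp27a1, the mitochondrial sterol 27-hydroxylase, also led in cluster 3 among the proximal clusters in all 4 libraries, at 1.14 on average against 0.534 in cluster 1. Outside them it reached 1.63 (0.8955 to 2.72), 1.565 (0.778 to 2.81), 0.960 (0.325 to 2.19) and 0.875 (0.326 to 1.89) in the macrophage-like cluster 21 and averaged 1.16 in the podocyte-like cluster 15. Cyp2r1, the main liver 25-hydroxylase, stood at 0.0130 to 0.0226 in the proximal pool and was highest there in the S2-like cluster 0, at 0.0260 on average against 0.0173 in cluster 3.

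The arachidonic acid epoxygenase list (19 Cyp2c and Cyp2j genes) was nearly all Cyp2j by UMIs: the 8 Cyp2j genes summed to 26.2, 26.4, 21.5 and 29.4 in the proximal pool, and the 11 Cyp2c genes to 0.241, 0.257, 0.204 and 0.207. Cyp2j5, a renal epoxygenase, was spread over all segments. It stood at 11.3, 10.8, 9.75 and 14.03 in cluster 0 and at 7.48, 9.25, 7.05 and 10.5 in cluster 3, its lowest named proximal cluster. The fold between those clusters was 1.17 to 1.51. Cyp2j9 and Cyp2j6 were as even, with 1.46-fold and 1.40-fold between the highest and lowest cluster means over clusters 0, 1, 3, 5 and 6.

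Cyp2j13, at the far end of the gene row from Cyp2j5, had a different profile. It averaged 16.1, 15.6 and 16.6 in clusters 0, 5 and 6 and 3.75 and 5.78 in clusters 1 and 3. In cluster 6 it stood at 18.2, 18.7, 12.7 and 16.9 and in cluster 1 at 3.70, 5.31, 3.26 and 2.72, with no overlap between the clusters. Cyp2j11 and Cyp2j7 rose toward S3: Cyp2j11 averaged 1.10 in cluster 3 and 5.24 in cluster 1, and Cyp2j7 0.208 and 0.763, with cluster 1 leading among the proximal clusters in all 4 libraries for both. Of the Cyp2c genes, Cyp2c23, an epoxygenase for which the RefSeq gene table lists Cyp2c44 as a synonym, stood at 0.141, 0.152, 0.153 and 0.122 in the proximal pool.

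The omega-hydroxylase list (13 Cyp4a, Cyp4f and Cyp4v genes) had no single profile. Cyp4a31 led in the S3-like cluster 1 in all 4 libraries, at 2.03, 2.13, 1.09 and 2.29, against 0.517, 0.377, 0.331 and 0.497 in cluster 5. Cyp4a10, a fatty acid omega-hydroxylase induced through Ppara, averaged 0.749 in cluster 1 and 0.109 in cluster 3. Cyp4a14 averaged 0.0789 and 0.0140 in those clusters, and Cyp4a32 was highest in cluster 0 in all 4 libraries, at 0.140 on average. Cyp4f13 was flat, with cluster means of 0.446 to 0.518 over clusters 0, 1, 3, 5 and 6 and 88.7% to 111% of its proximal level in the other nuclei. Cyp4f16 and Cyp4v3 were lower in the proximal pool than in the other nuclei, at 0.0143 against 0.0831 and 0.00673 against 0.0376 on average.

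Cyp4b1, a fatty acid and foreign compound hydroxylase on chromosome 4 (115624725 to 115647723, minus strand), was highest in clusters 0 and 6. It reached 21.6 (20.9 to 22.25), 21.6 (20.99 to 22.2), 17.2 (16.4 to 18.01) and 26.1 (25.3 to 26.9) in cluster 6 and averaged 21.6 in cluster 0. In cluster 1 it stood at 3.34, 3.00, 2.33 and 3.94. Clusters 0 and 6 differed little, and cluster 6 led in only 1 library.

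Among the foreign compound genes, Cyp2e1, which oxidises ethanol and small solvents, resembled Cyp4b1. It averaged 4.79 in cluster 6, 4.21 in cluster 0, 2.48 in cluster 5 and 0.480 in cluster 1. Cyp2d26 and Cyp2d12 belong to the drug-oxidising Cyp2d family. Cyp2d26 was highest at the S1 end, with 1.45 in cluster 3 and 0.0537 in cluster 0 on average. Cyp2d12 averaged 1.27 in the S1-like cluster 5 and 0.707 in the S1-like cluster 3, but 0.826 in the S2-like cluster 6, and 0.0975 in cluster 1. Cyp2d9 had the opposite profile to Cyp2d26, with 0.943 in cluster 1 and 0.0743 in cluster 3. Cyp1a1, the gene induced by aryl hydrocarbon ligands, was under the floor in the proximal pool in all 4 libraries, at 0 to 0.000804.

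**Figure D2:**
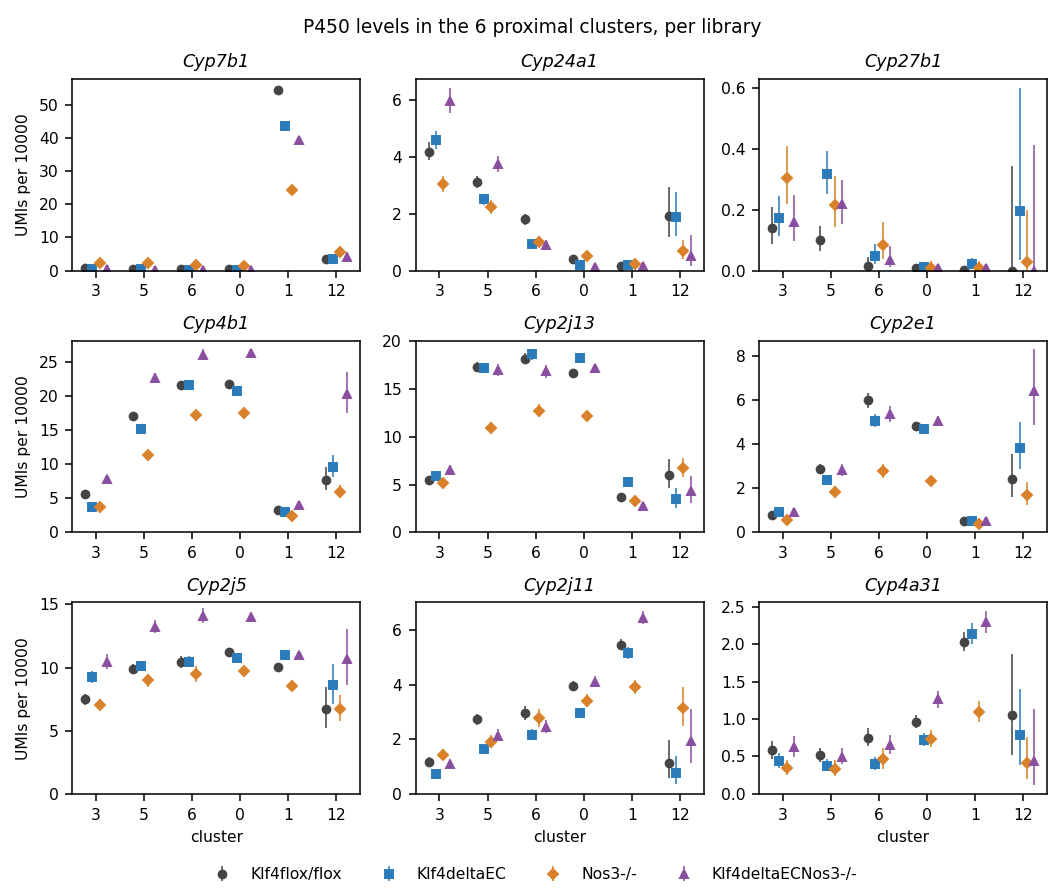
Points give UMIs per 10000 in each of the 6 proximal clusters, 1 symbol per library, with 95% counting intervals as bars; clusters run from S1-like (3, 5) through S2-like (6, 0) to S3-like (1), then the low-depth cluster 12. Cyp7b1 is high in cluster 1, Cyp24a1 and Cyp27b1 in clusters 3 and 5, Cyp4b1, Cyp2j13 and Cyp2e1 in clusters 6 and 0, and Cyp2j5 is similar in all.

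Of the 13 members with a proximal mean of at least 0.5, 7 had the same leading proximal cluster in all 4 libraries, beside 27.0% of 3562 genes. They were Cyp7b1, Cyp2j7, Cyp2j11 and Cyp4a31 in cluster 1 and Cyp24a1, Cyp2d26 and Cyp27a1 in cluster 3. In Cyp4b1, Cyp2j13, Cyp2e1, Cyp2d12, Cyp2j5 and Cyp2j9 the leading cluster differed between libraries.

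Other nuclei held proximal messages too, and the P450 genes have to be read against that. The 9 proximal markers stood in the other nuclei at 12.7% to 52.9% of their proximal level. Cyp4b1 (19.6% to 28.8%), Cyp2j5 (15.5% to 39.2%), Cyp2j13 (15.2% to 46.0%) and Cyp24a1 (13.3% to 34.7%) lay in that range. The part of free RNA or mixed nuclei in these levels was not tested.

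Of 23 members with a proximal mean of at least 0.1, 9 exceeded every proximal marker, relative to their own proximal level, in at least 1 outside cluster in all 4 libraries. They were Cyp4f13 (11 clusters), Cyp4f17 (9), Cyp2d22 (6), Cyp2j11 and Cyp2j7 (4 each), Cyp2j6 (3), Cyp27a1 (2), Cyp2a5 (1) and Cyp7b1 (1). The share of all genes that would pass this rule was not counted, so the count describes these members only. The yardstick is proximal marker genes, so members at like levels in other nuclei, such as Cyp4f13, pass it readily. Cyp2j11 and Cyp2j7 exceeded every proximal marker, relative to their own proximal level, in clusters 9, 11, 17 and 19 in all 4 libraries. In the connecting tubule-like cluster 11 Cyp2j11 stood at 7.001 (6.38 to 7.67), 5.44 (4.86 to 6.07), 4.38 (3.82 to 5.00) and 5.67 (5.09 to 6.29), against 3.38, 2.59, 2.80 and 3.57 in the proximal pool. Cyp2j7 stood there at 0.924, 1.17, 0.918 and 1.33, and both genes were above their proximal pool level in cluster 11 in every library. In the distal convoluted tubule-like cluster 9 Cyp2j11 was at 3.275, 2.40, 3.42 and 2.53.

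In the endothelial-like cluster 10, the cells whose Klf4 the labels target, Cyp20a1, a P450 with no assigned reaction, stood at 1.05 (0.763 to 1.41), 1.66 (1.29 to 2.10), 0.8003 (0.549 to 1.13) and 0.958 (0.656 to 1.35). Cluster 10 led for it in all 4 libraries, against 0.0803 to 0.135 in the proximal pool. Cyp26b1, which breaks down retinoic acid, stood in cluster 10 at 0.548 (0.347 to 0.823), 0.186 (0.0786 to 0.372), 0.344 (0.188 to 0.578) and 0.0787 (0.0140 to 0.245). Only the library labelled Klf4flox/flox and the double-labelled library had intervals that did not overlap. The value in the double-labelled library lay under the 3-count floor there, 0.0893. The share of all genes with such a gap in cluster 10 was not counted. Cyp26a1 and Cyp26c1, the other retinoic acid hydroxylases, stood at 0 to 0.00639 and 0.00302 to 0.00714 in the proximal pool.

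Cyp1b1, a hydroxylase of oestrogens and polycyclic compounds, led in the stromal-like cluster 13 in all 4 libraries, at 0.376, 0.462, 0.165 and 0.166. Of the members singled out after their values were seen, Cyp2d22 led in cluster 10 in all 4 libraries, at 0.670 on average. Cyp2s1 stood in the intercalated cell-like cluster 14 at 1.39 (1.11 to 1.71), 0.380 (0.257 to 0.543), 1.09 (0.7605 to 1.52) and 0.788 (0.608 to 1.01), and Gm26707 overlaps it in the annotation.

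**Figure D3:**
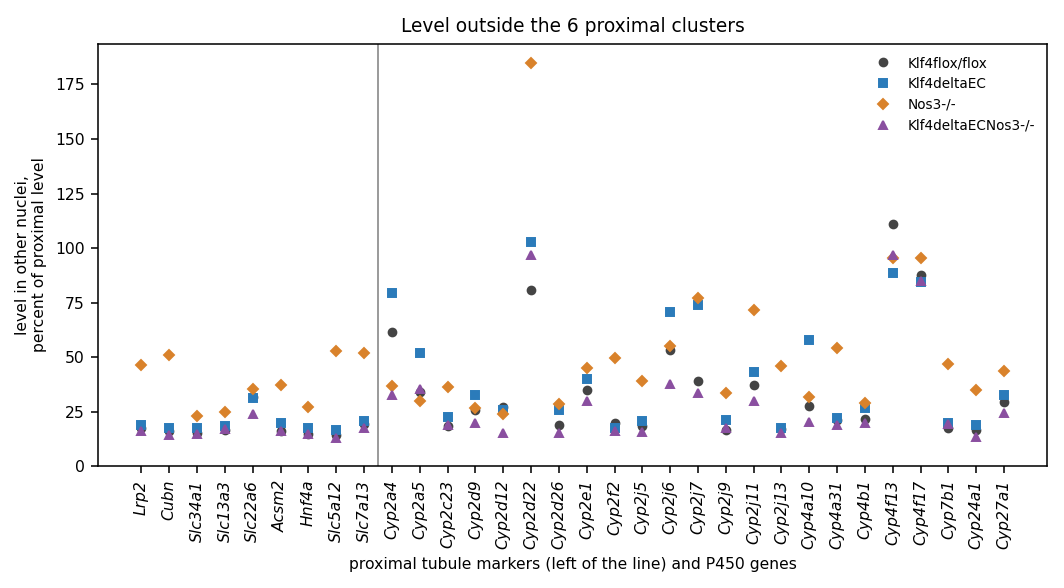
Points give the level in nuclei outside the 6 proximal clusters as a percent of the level in them, per library, for 9 proximal tubule markers (left) and the 23 P450 genes with a proximal mean of at least 0.1 (right). The markers lie between 12.7% and 52.9%, highest in the library labelled Nos3-/-; Cyp4f13, Cyp4f17 and Cyp2d22 lie well above them.

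Next the libraries were compared in the proximal pool. Genes entered where the higher library reached 0.5 per 10000, and the size limit was a log2 ratio of 1 with 0.1 added to both values. All 5 comparisons share libraries with others, so their values stand side by side and are not independent.

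In the library labelled Klf4deltaEC, against Klf4flox/flox, 0 of 13 members passed the limit, beside 0.763% of 3668 genes. The members' median log2 ratio was -0.16 and that of all genes -0.00. The lowest members were Cyp2d9 at a log2 ratio of -0.74, Cyp2j7 at -0.68 and Cyp7b1 at -0.45. Of the 13 members 10 were below 0, beside 50.6% of genes. Cyp7b1 stood at 10.1 against 13.8 in the pool, a ratio of 0.732 (0.715 to 0.75). Cyp2j13 and Cyp2j5 were slightly higher, at 12.2 against 11.3 and 10.3 against 9.78.

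In the library labelled Nos3-/-, against Klf4flox/flox, 1 of 15 members passed the limit, beside 3.50% of 3769 genes. Cyp2d12 was higher, at 1.03 against 0.350, a ratio of 2.94 (2.61 to 3.31), and reached the filter only in the library labelled Nos3-/-. It was higher in all 6 proximal clusters, though in cluster 12 the interval of the ratio, 0.501 to 5.5, included 1. In cluster 5 it stood at 2.36 (2.10 to 2.64) against 1.01 (0.890 to 1.14). With 0.5 added to both values it did not pass the limit. In the other direction 13 of 15 members were below 0, beside 40.7% of genes. The members' median log2 ratio was -0.42, against 0.07 for all genes.

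Cyp7b1 was the lowest of them. It stood at 6.98 against 13.8 in the pool, a ratio of 0.506 (0.491 to 0.522) and a log2 ratio of -0.97, just inside the limit. Without cluster 12, or scaled by the median of all genes, it passed the limit. The direction depended on the cluster: it was lower in cluster 1, at 24.4 against 54.5, and higher in clusters 0, 3, 5, 6 and 12, for instance at 2.13 against 0.559 in cluster 5. Cyp2e1 was lower in all 6 proximal clusters, with pool levels of 1.47 against 2.72 and a ratio of 0.540 (0.505 to 0.578). Cyp4b1 was lower in all 6, with a pool ratio of 0.746 (0.726 to 0.767).

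Several other measures set this library apart. In its proximal pool the 13 mitochondrially encoded genes summed to 23.9 per 10000, against 47.8 to 52.9 in the other libraries. The 4 connecting tubule markers summed to 11.4, against 0.849 to 1.76, with none of them at 0 in all libraries. The distal marker Slc12a3 stood at 2.84, against 0.394 to 0.595. The 5 thick ascending limb markers summed to 11.1, against 4.88 to 7.53, but Umod among them was lower, at 0.922 against 1.66 to 2.78. The 4 principal cell markers were also lower, summing to 0.170 against 0.402 to 0.564. Kap, an androgen-induced proximal gene, stood at 7.52, against 20.4 to 37.1. Depth was lowest, as above. The part of these differences in the P450 values was not tested.

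In the double-labelled library Klf4deltaECNos3-/-, against Nos3-/-, 0 of 18 members passed the limit, beside 4.73% of 3976 genes. Here 16 of 18 were above 0, beside 52.2% of genes. The members' median log2 ratio was 0.50, against 0.02 for all genes. Cyp2e1 came nearest, at 2.97 against 1.47, a ratio of 2.02 (1.89 to 2.17) and a log2 ratio of 0.97. Cyp2d9 stood at 0.638 against 0.294 and Cyp4b1 at 16.7 against 9.66, a ratio of 1.73 (1.68 to 1.77). Cyp2d12 was lower, at 0.540 against 1.03.

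Against Klf4deltaEC, the double-labelled library had 3 of 17 members past the limit, all higher, beside 1.87% of 3906 genes. All 3 reached the filter only in the double-labelled library, so their direction follows in part from the filter. With no filter the same 3 of 69 members passed, beside 105 of 21046 genes. Cyp2j7 stood at 0.743 against 0.287, a ratio of 2.59 (2.27 to 2.97). Cyp2j6 stood at 0.726 against 0.299, a ratio of 2.43 (2.13 to 2.77), and was higher in all 6 proximal clusters. Cyp2a4, a steroid and coumarin hydroxylase family gene, stood at 0.565 against 0.227, a ratio of 2.48 (2.14 to 2.89). Cyp2j6 and Cyp2j7 lie in the same Cyp2j row, with Cyp2j11 and Cyp2j8 between them. Cyp2j11 had a log2 ratio of 0.45, and Cyp2j8, below the filter, of 0.95. Elsewhere in the row the log2 ratio was 0.22 for Cyp2j9, 0.26 for Cyp2j5 and -0.14 for Cyp2j13. The median over the members was 0.38, against 0.10 for all genes, and after scaling by that median only Cyp2j7 passed the limit.

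Without the low-depth cluster 12 Cyp2a4 did not pass, and with 0.5 added to both values none of the 3 did. In cluster 12 Cyp2a4 stood at 1.09, 0.513, 0.626 and 2.75.

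Against Klf4flox/flox, the double-labelled library had 0 of 17 members past the limit, beside 0.902% of 3882 genes. The median was 0.12, against 0.08 for all genes. Cyp2a4 was highest, at a log2 ratio of 0.80, and Cyp7b1 lowest, at 10.2 against 13.8, a ratio of 0.743 (0.724 to 0.762). Cyp7b1 was thus lower than in the library labelled Klf4flox/flox in each of the other 3 libraries. Cyp4b1 was 1.29-fold higher (1.26 to 1.32).

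Of the 18 members at 0.5 or more in at least 1 library, 12 were lower in Klf4deltaEC over Klf4flox/flox and higher in Klf4deltaECNos3-/- over Nos3-/-, with both counting intervals clear of 0, beside 11.5% of 4099 genes. With the filter met in both comparisons the count was 9 of 13, and without a filter 13 of 69, Cyp2j8 being the added gene. The opposite order, higher and then lower, held for 0 of 18 members and 10.9% of genes. These are pool values, and single clusters could differ. In Klf4deltaECNos3-/- over Nos3-/- Cyp7b1 was above 0 in 1 proximal cluster and below 0 in 5.

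**Figure D4:**
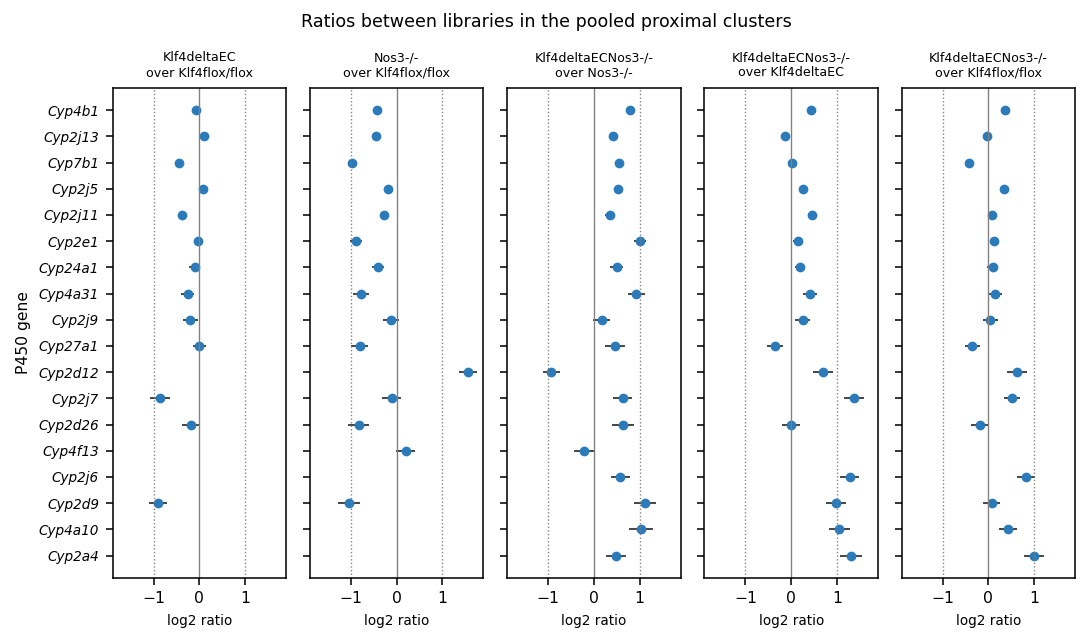
Points give the log2 ratio between 2 libraries in the pooled proximal clusters with no value added, with 95% counting intervals as bars, for the P450 genes that entered each of 5 comparisons; dotted lines mark -1 and 1. Most points lie below 0 for Nos3-/- over Klf4flox/flox and above 0 for Klf4deltaECNos3-/- over Nos3-/-, and Cyp2d12 and Cyp4f13 lie the other way in both. With no value added, some points lie past a dotted line that do not pass the limit used in the text.

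The partners of the P450 system were read from a list. Of 32 listed electron donors, haem enzymes, epoxide hydrolases, P450-fold prostanoid synthases and nuclear receptors, 30 had a row, 15 or 16 entered each comparison and 0 passed the limit in any. Por, the electron donor of the microsomal P450 enzymes, stood at 3.93, 3.11, 5.24 and 3.38 in the proximal pool. Alas1, which starts haem synthesis, stood at 2.53, 3.07, 1.25 and 1.80. Some listed genes differed between segments. Esr1, an oestrogen receptor, averaged 6.24 in the S3-like cluster 1 and 0.202 in cluster 3, and Tbxas1, thromboxane synthase, 0.0958 and 2.62. Vdr, the vitamin D receptor, averaged 3.11 and 3.89 in those clusters.

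The sex of the mice is not stated. Xist, transcribed from the silenced X of females, stood at 0.00281 to 0.00511 over all nuclei and Uty, on the Y chromosome, at 2.83 to 2.91. Of the members known to be higher in male mouse kidney, Cyp7b1, Cyp4b1, Cyp2j13 and Cyp2e1 were all lowest in the library labelled Nos3-/- in the proximal pool, as were Kap, Slco1a1 and Acsm3 from the same list. Of the 2 listed female-biased genes, Slc7a12 was highest there, at 0.361 against 0.0150 to 0.0972, and the member Cyp4a14 was not, at 0.0326, 0.0348, 0.0335 and 0.0758. Of the P450 symbols outside the rule, Cyp4a12a, a male-biased omega-hydroxylase, stood at 0.373, 0.297, 0.0963 and 0.428, Cyp4a12b at 0.0640, 0.0862, 0.0168 and 0.0442, and Cyp51, of cholesterol synthesis, at 0.848, 0.582, 0.642 and 0.740. Cyp51 averaged 1.94 in cluster 1 and 0.172 in cluster 5.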

How the data were processed

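Single-nucleus RNA libraries of mouse kidney cortex, 1 per genotype, were read from 1 deposited table of 21046 genes by 92 columns (23 clusters in 4 libraries). Its values are a signal made by the authors: mean UMIs per 10000 UMIs per cluster and library, each column summing to 10000. The submitters' processing notes name Cell Ranger, Seurat and mm10, without versions. Filters on nuclei and the treatment of doublets are not stated.

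Numbers of nuclei and the UMIs behind each column were recovered from the steps of the values: the largest number dividing at least 75% of reciprocals within a relative tolerance of 3e-14. On simulated data 8 of 8 columns gave the exact number of nuclei. Levels have exact Poisson and ratios Clopper-Pearson intervals (95%), for counting error only. Simulated intervals covered 95.2% to 97.9% of levels. No test across samples was possible with 1 library per group.

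The 6 proximal clusters were pooled, weighted by nuclei. Ratios were log2 after adding 0.1 to both values; genes entered at 0.5 per 10000 in the higher library, and the limit was 1. The floor was 3 counts. Genes named with values were the 15 with the highest proximal level, those led by another cluster at 1 or more, those past the limit, and a list by role. Members and lists were chosen with earlier results of these data known. One listed gene is not reported here. Gene positions and coding sequences came from GENCODE M21 (GRCm38). Alternatives were another pseudocount, no filter, unweighted clusters, median scaling, adding cluster 7 to the proximal clusters, and leaving out cluster 12, cluster 7 or the library labelled Nos3-/-. Python 3.11.15, NumPy 2.4.6, pandas 2.3.3, SciPy 1.17.1 and matplotlib 3.10.9 were used.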

Additional observations from a re-analysis of the deposited data

Results flagged for a closer look

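In 12 of the 18 P450 genes at 0.5 per 10000 or more in the higher library of at least 1 comparison, the proximal pool moved in opposite directions in the 2 comparisons that add the Klf4deltaEC label, with both counting intervals clear of 0. By the same rule and in the same order, 11.5% of 4099 genes did so. Cyp2a4, Cyp2j6 and Cyp4a10 met the filter only in the second comparison, and Cyp2j8, below it in both, had the same order. Each was lower in Klf4deltaEC over Klf4flox/flox and higher in Klf4deltaECNos3-/- over Nos3-/-. Values are log2 ratios with 0.1 added, and the difference between the comparisons was not tested. The intervals hold counting error only, with 1 library per genotype.

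Among the Cyp2j genes, Cyp2j6 stood at -0.36 and 0.49, Cyp2j7 at -0.68 and 0.54, Cyp2j9 at -0.18 and 0.15, and Cyp2j11 at -0.37 and 0.34. Of the foreign compound genes, Cyp2a4 stood at -0.22 and 0.40, Cyp2d9 at -0.74 and 0.90, and Cyp2d26 at -0.16 and 0.52. Of the fatty acid hydroxylases, Cyp4a10 stood at -0.48 and 0.82, Cyp4a31 at -0.23 and 0.83, and Cyp4b1 at -0.08 and 0.78. The sterol hydroxylase Cyp7b1 stood at -0.45 and 0.55 and the vitamin D 24-hydroxylase Cyp24a1 at -0.10 and 0.46. These are pool values, and single proximal clusters differed in the second comparison. There Cyp7b1 was above 0 in 1 cluster and below 0 in 5. Cyp24a1 was above in 2 and below in 3, and Cyp2j11 above in 3 and below in 3. Cyp2j7, Cyp2a4 and Cyp2j9 were each below 0 in 1 cluster, and the other genes named here in 0 of the clusters that entered. The second comparison is set against the library labelled Nos3-/-, which also stood apart in depth, mitochondrial RNA and connecting tubule markers, and the part of these was not tested.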

How the results depend on the processing

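Of 40 alternatives run, 31 left the count of P450 genes within 1.5 times and 9 moved it. Leaving cluster 7 out of the other nuclei, and adding it to the proximal clusters, were chosen after seeing the data. With it added, 8 genes were higher in the proximal pool and 6 had the same leading cluster in all 4 libraries. With 0.5 added to both values, the count past the limit went from 1 to 0 for Nos3-/- over Klf4flox/flox, from 3 to 0 for Klf4deltaECNos3-/- over Klf4deltaEC, and from 9 to 3 for genes higher in the proximal pool. For Nos3-/- over Klf4flox/flox it was 2 with no filter (Cyp2d12, Cyp2f2), 2 without cluster 12 and 2 after median scaling (Cyp2d12, Cyp7b1 in both). For Klf4deltaECNos3-/- over Nos3-/- it went from 0 to 1 with no filter (Cyp2f2) and to 1 with unweighted clusters (Cyp2e1). For Klf4deltaECNos3-/- over Klf4deltaEC it was 1 after median scaling (Cyp2j7). The cause was not tested.

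The pseudocount and weighting do not enter the count of genes with the same leading cluster. No paired analysis was possible because each genotype has 1 library and no replicate number. Depth limits the low members: a fixed floor of 0.1 per 10000 left 28 of 36 detected genes.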
